A study of Mus musculus with 24 samples.

Results

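Hoxb1 is a homeobox transcription factor gene, and it was measured here by 1 probe, number 2210, which the platform annotation ties to Hoxb1 alone (Entrez gene 15407). It is 1 of 8973 genes that the annotation names through probes with a single gene, and 1 of 14 measured genes of the Hoxa, Hoxb, Hoxc and Hoxd clusters. It was chosen by its measured log2 ratios over the groups of this series, high in early Flk1+ cells and low elsewhere, so those ratios and their differences are described without a test.

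Mouse embryonic stem cells were left to differentiate as aggregates called embryoid bodies, and their cells were sorted by Flk1, the VEGF receptor encoded by Kdr. Flk1+ and Flk1- cells were taken at 84 h, 95 h and 8 d of differentiation, with 4 samples in each of the 6 groups, and each sample was hybridised with a common whole-pup RNA on 1 of 24 two-colour Agilent mouse development arrays. The sources used here name no treatment, genotype or stem cell line, and they do not say whether the 4 samples of a group came from separate cultures, so the spread between them may be technical. Every level below is a log2 ratio of sample over the pup reference, and a ratio near 0 means a level like that of the pups, not absence. The spot intensities, which would show whether a low value lay at background, are not analysed here.

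Hox genes sit in clusters and are switched on in the order of their position, from the end that holds paralogue group 1 towards the end with the highest numbers. Hoxb1 lies at the early end of the Hoxb cluster. In the embryo it is among the first Hox genes on, in the primitive streak and the mesoderm that leaves it, and later it marks rhombomere 4 of the hindbrain and part of the mesoderm that adds cells to the heart. Hox proteins bind DNA together with TALE homeodomain proteins of the Pbx, Meis and Pknox families, and retinoic acid is a known inducer of Hoxb1.

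The window around the start of Hoxb1 is shown because it holds the element through which Hoxb1 and Pbx proteins are known to act on Hoxb1 itself in the hindbrain. It is the RefSeq sequence of build GRCm38.p6 at chr11:96365508-96365807 on the + strand, 300 bases long, of which 250 lie before the annotated start and 50 after it. Capitals mark matches to the motifs searched.
Hoxb1 promoter: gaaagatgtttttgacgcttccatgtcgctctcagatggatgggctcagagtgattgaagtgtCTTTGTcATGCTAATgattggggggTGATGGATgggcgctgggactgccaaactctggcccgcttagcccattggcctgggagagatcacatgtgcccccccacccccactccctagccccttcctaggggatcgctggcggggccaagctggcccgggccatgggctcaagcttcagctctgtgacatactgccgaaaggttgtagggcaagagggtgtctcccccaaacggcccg
Both strands were searched for exact matches only, so a related site that departs from a motif at a fixed base was not counted. The Pbx-Hox motif TGATNNAT had 1 match, written TGATGGAT, whose first base lies at -162 from the start. A match to it was found in 8.86% of 32817 windows of the same length around gene starts. Just upstream, a match to the octamer ATGCNAAT began at -180 (3.15% of windows) and 1 to the Sox motif CTTTGT at -187 (18.7% of windows), and none of the 3 matches overlapped another. No match was found to the Meis and Pknox motif TGACAG (19.2% of windows) or to the retinoic acid response elements AGGTCANNAGGTCA and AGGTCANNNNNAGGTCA (0.00914% of windows each). Of the other measured Hox genes 9 had windows in the table, 11 in all. The Pbx-Hox motif was matched in 2 of these 11 windows, those of Hoxb8 and Hoxd11, and the octamer in 0. The retinoic acid response elements were matched in so few windows that finding none here says little. A match describes letters and not binding, which was not measured in this series.

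Some arrays stood apart from their group over all features. Replicate arrays correlated at 0.59 to 0.93 in Flk1+ cells at 84 h and at 0.669 to 0.966 across the other groups of 84 h and 95 h, while at 8 d the lowest value was 0.925. On the first principal component, arrays 2 and 4 of the early Flk1+ group (84 h) had the highest scores, 63.6 and 60.6, and Flk1- array 4 of that time had 24.1. Kdr, the gene of the sort, was low on those 2 Flk1+ arrays, at 0.04 and 0.67 against 1.80 and 1.43 on arrays 1 and 3. Their Hoxb1 ratios were 1.36 and 2.08, within or above the range of the other Flk1+ arrays of 84 h. Values without these 3 arrays are given for part of the results, so a value of 84 h given alone may also change without them.

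Hoxb1 RNA was high in Flk1+ cells at 84 h and 95 h and low in the other 4 groups. At 84 h the 4 Flk1+ arrays gave 1.28, 1.36, 1.48 and 2.08, a mean of 1.55 ± 0.36 (SD, n = 4), or 2.93 times the pup reference. The 4 Flk1- arrays gave -0.31, -0.22, -0.24 and -0.49, a mean of -0.32 ± 0.12. Every Flk1+ array lay above every Flk1- array, and the means differed by 1.87, or 3.65-fold. Without the 3 arrays that stood apart the difference was 1.64.

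At 95 h the sorts were still separate, but the gap was smaller and the change was on the Flk1- side. The Flk1+ arrays gave 1.36, 1.77, 1.18 and 1.20, a mean of 1.38 ± 0.27, which overlapped the 84 h values. The Flk1- arrays gave -0.04, 0.74, 0.13 and 0.35, a mean of 0.30 ± 0.34, and all 4 lay above all 4 Flk1- arrays of 84 h. The sort difference was 1.08, or 2.12-fold. Array 2 gave the highest value in both sorts at this time.

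By 8 d Hoxb1 was low in both sorts. The Flk1+ arrays gave -0.40, -0.24, -0.20 and 0.06, a mean of -0.19 ± 0.19, so the mean fell by 1.57 from 95 h with no overlap. The Flk1- arrays gave -0.20, -0.07, -0.06 and -0.05, a mean of -0.09 ± 0.07, a step of -0.39 from 95 h. The sort difference was -0.10, and the arrays overlapped. Because these are bulk samples, fewer Hoxb1-expressing cells and less Hoxb1 RNA per cell cannot be told apart.

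**Figure D1:**
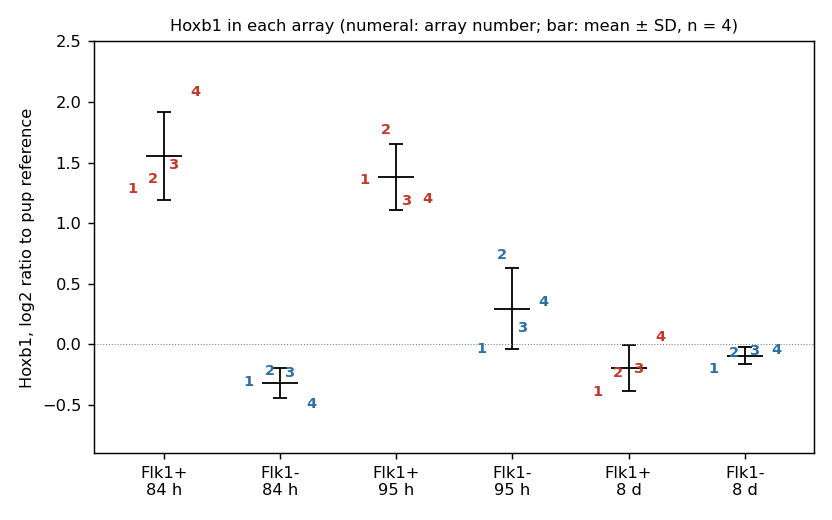
Hoxb1 log2 ratio to the pup reference in each of 24 arrays (numerals give the array number within a group, red Flk1+ and blue Flk1-), with the mean and SD of 4 arrays. The Flk1+ arrays of 84 h and 95 h lie between 1.18 and 2.08, and no array of the other groups exceeds 0.74.

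Ordered by mean, the groups ran from Flk1+ at 84 h (1.55) and Flk1+ at 95 h (1.38), through Flk1- at 95 h (0.30), to Flk1- at 8 d (-0.09), Flk1+ at 8 d (-0.19) and Flk1- at 84 h (-0.32). The first pair overlapped, with a gap of 0.17 that was smaller than either SD. The step from Flk1+ to Flk1- at 95 h, 1.08, was the widest gap between neighbours. The last 3 groups also overlapped their neighbours, with gaps of 0.10 and 0.12. Flk1- cells at 95 h did not overlap Flk1- cells at 8 d, but their closest arrays were at -0.04 and -0.05, and they did overlap Flk1+ cells at 8 d.

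Set against all 17440 features, the sort difference of Hoxb1 was the 12th largest towards Flk1+ cells at 84 h and the 39th at 95 h. At 8 d it was at place 14208. Without overlap between the sorts, as for Hoxb1, were 17.4% of all features at 84 h and 4.81% at 95 h. Between times, non-overlap was found for 9.98% of features from 84 h to 95 h in Flk1- cells, and from 95 h to 8 d for 34.6% in Flk1+ and 27.8% in Flk1- cells. These places and shares describe the gene and carry no test, since the same contrasts chose it.

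Hoxb1 did not follow the receptor used for the sort over the whole course. Kdr in Flk1+ cells had a mean of 0.98 ± 0.79 at 84 h, 1.85 ± 0.11 at 95 h and 1.58 ± 0.21 at 8 d, while Hoxb1 was near 0 at 8 d. Over the 16 arrays of 84 h and 95 h the correlation between both genes was 0.809, and over all 24 it was 0.499. The points fall into groups by sort and time, and arrays of a group are not independent points, so both values are descriptions. At 84 h the array with the lowest Kdr among Flk1+ samples, array 2, still had a Hoxb1 ratio of 1.36.

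**Figure D2:**
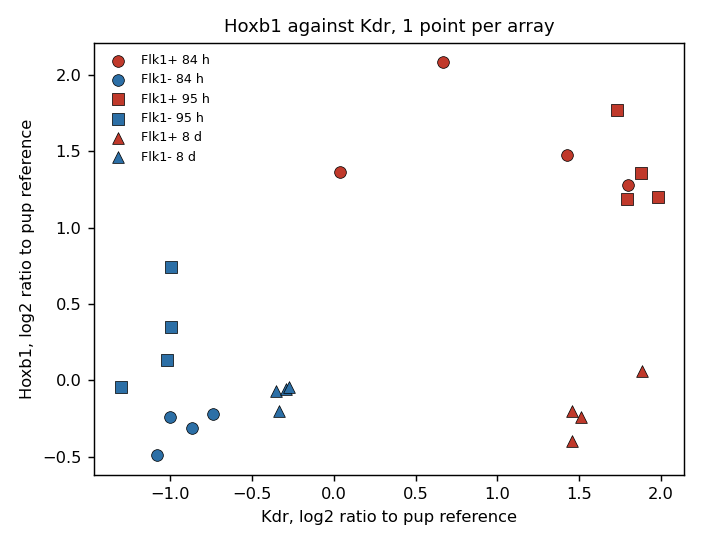
Hoxb1 against Kdr, both as log2 ratio to the pup reference, 1 point per array (colour gives the sort, shape the time). Flk1+ arrays of 8 d keep Kdr between 1.46 and 1.89 but have Hoxb1 between -0.40 and 0.06.

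Markers of nascent and lateral mesoderm were higher in early Flk1+ cells. Of 13 measured markers other than Kdr 8 were higher in Flk1+ cells at 84 h and 0 lower (limma, adjusted p under 0.05), with a median difference of 0.81 against 0.00 over all features, where 5.3% of features were called higher. At 95 h 5 of 13 were higher and 0 lower (0.659% of features called higher), and at 8 d 0 of 13 were called (0.373% in either direction), with 2 at an unadjusted p under 0.05. The count at 84 h was 7 to 9 without single arrays. Mesp1, Gata4 and Eomes lost their 84 h calls in a limma fit of the 8 arrays alone (adjusted p = 0.0985, 0.0664 and 0.205). Eomes also lost its call in 11 of 24 omissions of single arrays. The count at 95 h was 3 without Flk1+ array 1, 2 or 3 or Flk1- array 4, 2 without Flk1+ array 4, and 1 in the weighted fit or in that of the 8 arrays alone. At 8 d it was 2 from 8 arrays alone and 4 with weights. Hand1, a factor of lateral mesoderm, had means of 2.26 ± 0.49 (Flk1+) and 0.56 ± 0.30 (Flk1-) at 84 h, 1.71 apart (SE 0.23, limma adjusted p = 4.66e-05). Mesp1, a factor of early cardiovascular mesoderm, was far above the pup reference in both sorts at 84 h, with means of 4.24 (Flk1+) and 2.75 (Flk1-).

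Markers of other cell types that the sorts could hold differed from list to list. Of 7 measured neural and hindbrain markers 1 was higher and 2 lower on the Flk1+ side at 84 h (5.3% and 8.18% of all features), and 0 and 1 at 95 h (0.659% and 1.37%) and at 8 d (0.149% and 0.224%). At 84 h the mean ratio over the list ran from -0.29 to 0.17 in Flk1+ arrays and from 0.15 to 0.30 in Flk1- arrays. The higher one was Neurog1, a neural factor, at 0.55 (SE 0.18, limma adjusted p = 0.0486) with arrays that overlapped and values of 1.49 and 0.70 on arrays 2 and 4 against 0.18 and 0.16 on the other Flk1+ arrays. The lower ones were Nefl, at -1.92 in Flk1+ and -0.65 in Flk1- cells, and Otx2, at 2.2 and 3.1. Otx2 was thus above the pup reference in both sorts. Gbx2, which marks anterior hindbrain, gave -0.09 and -0.25 (difference 0.16, adjusted p = 0.327). Of 6 endothelial markers 0 were called at 84 h (13.5% of all features), with 3 at an unadjusted p under 0.05. Their list mean lay between -1.26 and -0.85 in Flk1+ arrays of 84 h. At 95 h 0 were called (2.03% of all features), with 0 at an unadjusted p under 0.05. At 8 d 2 were higher and 0 lower (0.149% and 0.224% of all features), with a median difference of 0.45. Cdh5, the cadherin of endothelial junctions, had a ratio of -3.23 in Flk1+ cells at 84 h and -0.18 at 8 d. Of 7 blood markers 0 were called at 84 h (13.5% of all features), with 1 at an unadjusted p under 0.05. The count was also 0 at 95 h and 8 d (2.03% and 0.373% of all features), with 0 and 1 at an unadjusted p under 0.05. Of 8 endoderm markers 1 was higher and 3 were lower at 84 h, and 0 and 3 at 95 h and at 8 d, against the shares of features called lower just given, 8.18%, 1.37% and 0.224%. The part of these cell types in the Hoxb1 values was not tested.

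No other measured Hox gene passed the test between the sorts at 84 h or 95 h in the unweighted fit of all 24 arrays. They were 13, all from paralogue groups above the third, so the paralogues of Hoxb1 and its nearest neighbours in the cluster are not among them. At 84 h limma called 0 of 13 between the sorts, where 13.5% of all features were called, with 3 at an unadjusted p under 0.05 and a median difference of 0.14. At 95 h it called 0 of 13 (2.03% of all features), with 1 at an unadjusted p under 0.05 and a median of 0.04. For 13 genes, 0 calls is near both shares, so these counts say little about the other Hox genes. The largest difference among them was 0.72 at 84 h and 0.30 at 95 h, against 1.87 and 1.08 for Hoxb1.

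Hoxd13, of the last paralogue group, came next after Hoxb1 at 84 h. Its Flk1+ arrays gave 0.46, 2.04, 0.18 and 0.87, and its Flk1- arrays 0.09, 0.16, 0.08 and 0.36. The groups overlapped, and the highest value was on array 2, one of those that stood apart. The difference was 0.72 (SE 0.29, limma adjusted p = 0.0899), and it passed without Flk1+ array 1 (0.86, adjusted p = 0.0433) or 3 (0.95, adjusted p = 0.0207). Hoxd12 gave 0.39 (SE 0.18, adjusted p = 0.145), with 1.25 on Flk1+ array 4 and -0.01 to 0.19 on the other 3. Hoxc10 gave 0.27 (SE 0.11, adjusted p = 0.0983) with arrays that did not overlap, and it passed without Flk1- array 1 of 95 h (adjusted p = 0.0424).

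Within the Hoxb cluster, the other 4 measured genes gave differences of at most 0.31 between the sorts at the early times. Hoxb4 had means of 0.35 ± 0.13 (Flk1+) and 0.26 ± 0.13 (Flk1-) at 84 h, and 0.08 ± 0.20 and 0.16 ± 0.39 at 95 h. Hoxb5 had 0.35 ± 0.18 and 0.22 ± 0.08 at 84 h, and 0.35 ± 0.18 and 0.17 ± 0.21 at 95 h. Hoxb9 had 0.31 ± 0.16 and 0.21 ± 0.06 at 84 h. Hoxb8 differed by 0.31 (SE 0.24, adjusted p = 0.38) at 84 h and by 0.11 (SE 0.24, adjusted p = 0.989) at 95 h. With array weights, 3 of the 13 genes passed at 84 h, Hoxa5 at -0.27, Hoxa9 at -0.49 and Hoxb5 at 0.21, each smaller than the value of Hoxb1 in that fit, 1.69.

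**Figure D3:**
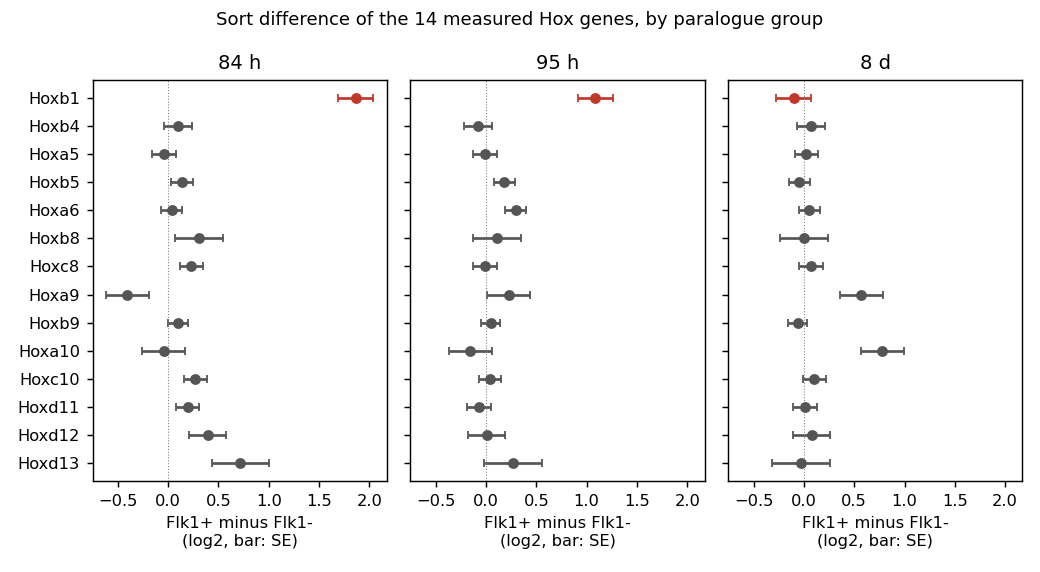
Flk1+ minus Flk1- difference (log2) of the 14 measured Hox genes at 84 h, 95 h and 8 d, ordered by paralogue group, with the standard error of the fit. Hoxb1 (red) lies at 1.87 and 1.08 at the early times and at -0.10 at 8 d, and the other 13 lie between -0.40 and 0.72 at 84 h.

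From 95 h to 8 d, while Hoxb1 fell, Hoxa10 and Hoxb8 rose in both sorts. In Flk1+ cells 2 of 13 rose and 3 fell (22.1% of all features called), and in Flk1- cells 2 rose and 0 fell (17.7%). Hoxa10 had the widest change of the family. Its Flk1+ arrays gave -1.70, -1.56, -1.73 and -1.40 at 95 h and 0.73, 0.21, 1.34 and 1.28 at 8 d, a rise of 2.49 (SE 0.21, limma adjusted p = 1.71e-08). In Flk1- cells it rose by 1.56 (SE 0.21, adjusted p = 1.58e-05), from -1.44 ± 0.28 to 0.11 ± 0.26, again with no overlap.

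Hoxb8 lies in the same cluster as Hoxb1 and moved the other way. It rose by 0.85 in Flk1+ cells (SE 0.24, adjusted p = 0.0133) and by 0.96 in Flk1- cells (SE 0.24, adjusted p = 0.00651), to 1.15 ± 0.35 and 1.15 ± 0.12. The first call ended without Flk1+ array 3 of 8 d (adjusted p = 0.0529). The 3 that fell in Flk1+ cells did so by less, Hoxb9 by 0.35 (SE 0.10, adjusted p = 0.0124), Hoxa6 by 0.34 (adjusted p = 0.0237) and Hoxb5 by 0.30 (adjusted p = 0.0463), and the last 2 lost their calls after quantile normalization (adjusted p = 0.35 and 0.0539). Hoxa6 also lost its call without any of 4 single arrays and Hoxb5 without any of 16. The count of 5 was 3 without Flk1+ array 1, 2 or 3 of 8 d or Flk1+ array 1 or 2 of 95 h. From 84 h to 95 h 1 of 13 was called in Flk1+ cells (19.8% of all features), Hoxc10 at -0.50 (adjusted p = 0.00667). That call ended once the 3 arrays standing apart were left out (-0.39, adjusted p = 0.0892). The count was 3 without Flk1+ array 1 or 3 of 84 h, with Hoxd11 and Hoxd13 added, and 2 without Flk1+ array 4 or Flk1- array 2 of 95 h, with Hoxa9 added. In Flk1- cells 0 of 13 were called between those times (1.64% of all features), with 1 at an unadjusted p under 0.05, and 1, Hoxc10, without Flk1- array 1 of 95 h (-0.40, adjusted p = 0.0278).

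At 8 d Hoxa10 and Hoxa9 had the highest sort differences of the family. Hoxa10 differed by 0.78 (SE 0.21, adjusted p = 0.164), with arrays that overlapped, and passed without Flk1+ array 2 (1.00, adjusted p = 0.024). It also passed with array weights (0.75, adjusted p = 0.0105) and when the replicate number was a block (adjusted p = 0.0112). Hoxa9 differed by 0.57 (SE 0.21, adjusted p = 0.633), from -0.50 ± 0.25 in Flk1+ to -1.07 ± 0.07 in Flk1- cells with no overlap (15.9% of all features), and passed in a fit of the 8 arrays of that time alone (adjusted p = 0.0277), as it did in the weighted fit (0.61, adjusted p = 0.000364). With all 24 arrays in 1 unweighted fit limma called 0 of 13 at 8 d (0.373% of all features), with 2 at an unadjusted p under 0.05.

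Of the TALE cofactors, Pbx3 was higher in Flk1+ cells at both early times. Its Flk1+ arrays at 84 h had a mean of 1.23 ± 0.28, with the lowest value, 0.90, on array 4, and its Flk1- arrays gave 0.17, 0.01, 0.03 and 0.34. The groups did not overlap, and the difference was 1.09 (SE 0.14, limma adjusted p = 1.86e-05), or 1.38 without the 3 arrays that stood apart. At 95 h Pbx3 had 1.32 ± 0.12 in Flk1+ and 0.36 ± 0.27 in Flk1- cells, 0.96 apart (SE 0.14, adjusted p = 0.000195). At 8 d Pbx3 was 0.89 ± 0.02 in Flk1+ and 0.71 ± 0.17 in Flk1- cells, so unlike Hoxb1 it was above the pup reference in both sorts. The change of its sort difference from 95 h to 8 d was -0.78 (SE 0.19, adjusted p = 0.0814), where 0.533% of all features were called.

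The other 5 measured cofactors gave 1 call. Of 6 in all 2 were higher and 0 lower at 84 h, 1 and 0 at 95 h, and 0 and 0 at 8 d (5.3%, 0.659% and 0.149% of features higher, 0.224% lower at 8 d), with a median of 0.36, 0.06 and 0.07. At 8 d 1 had an unadjusted p under 0.05. Meis2 was the second at 84 h, at 0.48 (SE 0.14, adjusted p = 0.0334), a call that ended once the 3 arrays standing apart were left out (0.59, adjusted p = 0.062) or without Flk1+ array 2 or 3 or Flk1- array 1, 2 or 3. Meis1 gave 0.36 (adjusted p = 0.059), Pbx2 0.26 (adjusted p = 0.178) and Pknox1 -0.05 (adjusted p = 0.62) at 84 h. While Hoxb1 fell from 95 h to 8 d, Meis2 rose by 1.25 in Flk1+ cells (SE 0.14, adjusted p = 1.28e-06) and by 0.69 in Flk1- cells (adjusted p = 0.00158), and Meis1 by 0.78 (SE 0.13, adjusted p = 8.74e-05) and 0.46 (adjusted p = 0.0126).

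**Figure D4:**
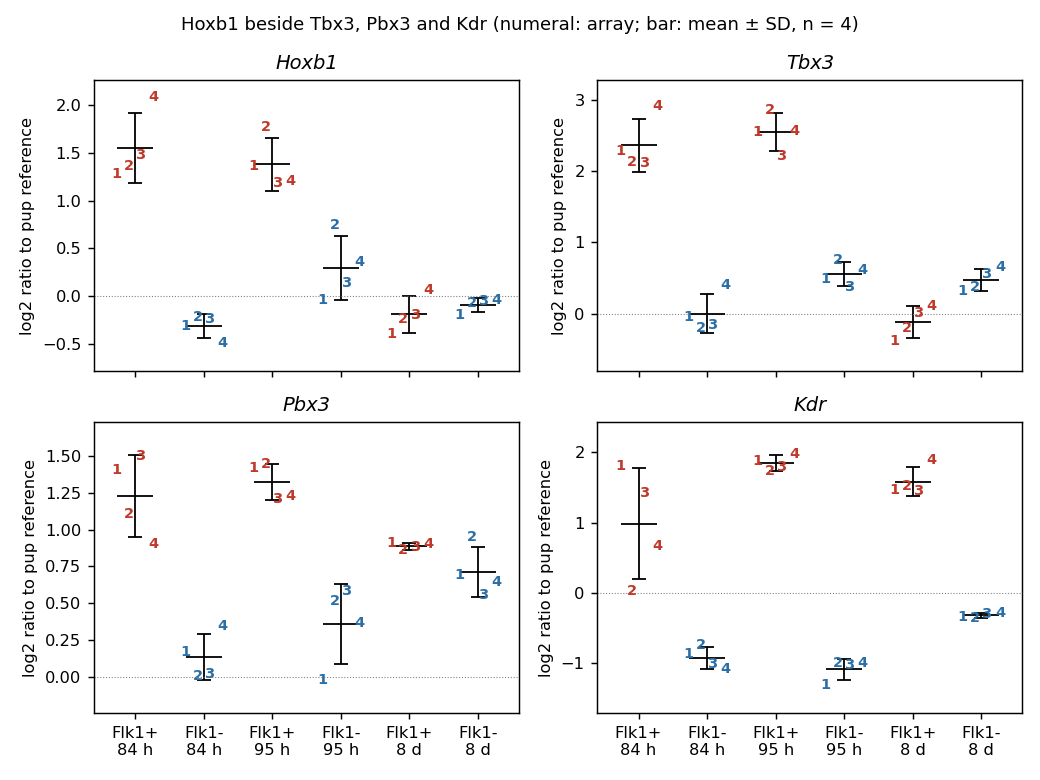
Log2 ratio to the pup reference of Hoxb1, the gene with the most similar profile (Tbx3), the cofactor Pbx3 and the sort gene Kdr, in each array (numerals) with the mean and SD of 4 arrays per group. Hoxb1 and Tbx3 are high in Flk1+ cells at 84 h and 95 h only, Pbx3 keeps means of 0.89 and 0.71 at 8 d, and Kdr keeps 1.58 in Flk1+ cells.

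Among genes of the retinoic acid pathway limma called 1 at an early time. Of 9 measured 1 was higher and 0 lower at 84 h, where 13.5% of all features were called and 5.3% were higher, so the count was near the share over all features. At 95 h and 8 d limma called 0 (2.03% and 0.373% of all features), with 1 at an unadjusted p under 0.05 at each of these times. The called one was the nuclear receptor gene Rxra, at 0.52 (SE 0.14, adjusted p = 0.0195), which did not pass once the 3 arrays standing apart were left out (0.50, adjusted p = 0.0877). It was also lost without Flk1+ array 4 or Flk1- array 1, 2 or 3. Rarb, a receptor gene that is itself induced by retinoic acid, was -0.36 (Flk1+) and -0.17 (Flk1-) at 84 h (adjusted p = 0.406) and -0.50 and -0.23 at 95 h (adjusted p = 0.613). From 95 h to 8 d it rose by 1.03 in Flk1+ (SE 0.15, adjusted p = 3.95e-05) and by 0.57 in Flk1- cells (SE 0.15, adjusted p = 0.0126), opposite to Hoxb1.

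Caudal and primitive streak genes, which act before or beside the first Hox genes, had 3 of 10 members higher and 0 lower at 84 h (5.3% of all features higher), with a median of 0.39. Mesp1 was higher by 1.49 (SE 0.28, adjusted p = 0.0014), but a fit of the 8 arrays compared alone gave an adjusted p of 0.0985. The calls of Mesp1 and Eomes were also counted among the mesoderm markers above, so they are not separate calls. Mesp2 and Eomes, called at 0.39 and 0.48, lost their calls once the 3 arrays standing apart were left out (0.23 and 0.41). At 95 h 1 was higher and 0 lower (0.659% of all features higher), with a median of 0.12. This was Fgf3, a growth factor gene of the early streak and hindbrain, at 1.54 in Flk1+ and 0.73 in Flk1- cells, with a gap of 0.81 (SE 0.21, adjusted p = 0.0398) whose call ended without any of 16 single arrays (0.74 to 0.92 over all 24 omissions). Cdx2, a caudal factor that acts on Hox clusters, gave 0.20 and -0.06 at 84 h (adjusted p = 0.0882). Mesp2 had the other order at 95 h, with 0.235 in Flk1+ and 0.565 in Flk1- cells, and was not called. The change of its sort difference from 84 h to 95 h was -0.718 (SE 0.143, limma adjusted p = 0.129). At 8 d limma called 0 of 10 (0.373% of all features), with 0 at an unadjusted p under 0.05. Between 95 h and 8 d 7 of 10 fell in each sort, and 0 rose, with medians of -1.13 in Flk1+ and -0.78 in Flk1- cells (9.31% and 7.78% of features called lower).

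Polycomb and Trithorax regulators act in complexes that keep Hox clusters silent or active. At 84 h 1 of 17 was higher on the Flk1+ side and 2 were lower. Over all features 5.3% were called higher there and 8.18% lower, so both counts were near those shares. At 95 h 0 were higher and 3 lower (0.659% and 1.37% of all features). The median was -0.14 at 84 h and -0.02 at 95 h. Cbx7, a Polycomb protein of pluripotent cells, had means of 0.66 (Flk1+) and 2.70 (Flk1-) at 84 h, which differed by -2.04 (SE 0.16, adjusted p = 2.65e-08), and by -1.39 at 95 h (SE 0.16, adjusted p = 1.02e-05). Jarid2, a partner of the PRC2 complex, differed by -1.31 at 84 h (SE 0.25, adjusted p = 0.00194) and by -1.05 at 95 h (SE 0.25, adjusted p = 0.0273). The early value was -0.77 with those 3 arrays left out (adjusted p = 0.00982) and had an adjusted p of 0.115 from the 8 arrays of that time alone. The later call ended with array weights (adjusted p = 0.0501) or without Flk1+ array 1 or 4 or Flk1- array 1, 2 or 3. Pluripotency markers were also lower in Flk1+ cells, with 7 of 14 called at 84 h, 5 at 95 h and 0 at 8 d (8.18%, 1.37% and 0.224% of all features lower), and 5 at an unadjusted p under 0.05 at 8 d. Their list mean was 0.39 to 0.79 in Flk1+ and 1.42 to 1.49 in Flk1- arrays at 84 h. Their part in the Polycomb values was not tested. Wdr5 (0.32, adjusted p = 0.0427 at 84 h) and Phc1 (-0.42, adjusted p = 0.0489 at 95 h) lost their calls in 14 and 17 of the 24 omissions of single arrays. The count at 84 h was 7 without Flk1+ array 1, 6 without Flk1+ array 3 and 5 without Flk1- array 4. At 8 d limma called 0 of 17 (0.373% of all features), with 1 at an unadjusted p under 0.05, and 1 with the replicate number as a block.

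Splanchnic and second heart field genes, which mark the mesoderm where Hoxb1 is known later, had 4 of 9 members higher and 0 lower at 84 h (5.3% of all features higher) and 1 and 0 at 95 h (0.659% higher), with medians of 0.44 and 0.14. Fgf10, a growth factor gene of that field, had Flk1+ arrays at 2.15, 2.03, 1.23 and 1.15 and Flk1- arrays at -0.11, -0.22, 0.01 and 0.32 at 84 h. The sorts did not overlap, and the difference was 1.64 (SE 0.19, adjusted p = 6.59e-06), or 1.79 without the 3 arrays that stood apart. It was 1.13 at 95 h (SE 0.19, adjusted p = 0.00109), and at 8 d the order was turned, with 0.76 ± 0.11 in Flk1+ and 1.24 ± 0.21 in Flk1- cells. The cardiac factors Gata4 and Gata6 were called at 84 h at 0.81 (adjusted p = 0.00161) and 0.50 (adjusted p = 0.013). Both missed the threshold in a fit of those 8 arrays alone (adjusted p = 0.0664 and 0.073), and Gata6 was also not called after quantile normalization (0.37) or without Flk1- array 2. The call of Gata4 was also counted among the mesoderm markers above. Nkx2-5, the cardiac homeobox gene, at 0.31 (adjusted p = 0.0459), was lost in 15 of the 24 omissions of single arrays (0.21 to 0.37). At 8 d limma called 0 of 9 (0.373% of all features), with 4 at an unadjusted p under 0.05. From 95 h to 8 d, while Hoxb1 fell, 4 of 9 rose and 2 fell in Flk1+ cells (22.1% of all features called). In Flk1- cells 4 rose and 0 fell (17.7%), and the medians were 0.56 and 0.33. In Flk1+ cells at 84 h 6 of the 9 means lay above 0 and 3 below, Nr2f1 at -2.88, Mef2c at -1.53 and Nr2f2 at -1.48.

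Leaving out single arrays moved the number of genes called at 84 h over these 5 lists (cofactors, retinoic acid, streak, Polycomb and Trithorax, heart field), which was 13, to 20 without Flk1+ array 1 and to 7 without Flk1- array 2 or 3. The streak list had 1 call without Flk1- array 3, and the heart field list 2 without Flk1- array 2. At 95 h the number over the 5 lists was 6, and 3 without Flk1+ array 4.

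Of 8972 other named genes, Tbx3, which encodes a T-box repressor, had the profile most like that of Hoxb1, with a Pearson correlation of 0.96 over the 24 arrays and 0.982 over the 6 group means. Its Flk1+ arrays gave 2.29, 2.13, 2.12 and 2.92 at 84 h and its Flk1- arrays -0.05, -0.20, -0.17 and 0.40. Array 4 was the highest Flk1+ array of 84 h and array 2 the highest of 95 h for both genes, and after removing the group means the correlation over arrays was 0.647. The genes parted at 8 d, where Tbx3 was -0.12 ± 0.22 in Flk1+ and 0.47 ± 0.16 in Flk1- cells. Correlations over arrays are descriptions, since arrays share their group and their scaling.

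The next genes were Vstm2b (0.92), Prkd1 (0.916), which encodes protein kinase D1, and Dlg5 (0.893), a polarity scaffold. Then came Cdh2 (0.891), which encodes N-cadherin, Olfm1 (0.884), Snai1 (0.884), a repressor of E-cadherin, Ctnnd1 (0.883), which encodes the cadherin-binding p120 catenin, Tirap (0.88) and Dzip1l (0.876). Vstm2b had means of 1.65 ± 0.29 and -0.01 ± 0.12 at 84 h and 1.90 ± 0.14 and 0.72 ± 0.05 at 95 h in Flk1+ and Flk1- cells, and 0.25 and 0.21 at 8 d. The measure ignores the size of the change. Ctnnd1 ran only from 0 to 0.18 in its group means, and Tirap from -0.05 to 0.40. Without the 3 arrays that stood apart, all 10 remained among the 100 most similar genes and 4 among the first 10.

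The lowest correlations belonged to Pdk1 (-0.892), a kinase gene of glycolytic metabolism, Klf2 (-0.892), a Krüppel-like factor gene, and Pik3cb (-0.885), a phosphoinositide kinase gene. Klf2 had means of -1.97 ± 0.27 (Flk1+) and 0.00 ± 0.28 (Flk1-) at 84 h. Among Hox genes Hoxb5 was most like Hoxb1, at 0.721, with group means that spanned 0.30 against 1.87 for Hoxb1, and Hoxa10 least like it, at -0.496. Pbx3 had 0.703, Fgf10 0.726 and Fgf3 0.709.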

How the data were processed

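RNA of sorted embryoid body cells was measured on 24 two-colour arrays, with sample RNA in Cy5 and whole-pup RNA in Cy3 per the labels. The authors deposited 1 value per probe and array, below and above 0 as a log ratio is, and it was handled here as log2 of sample over reference. Log base, direction, background correction and normalization within arrays are not given in the sources used here. The direction was read from markers: the mean over the 24 arrays lay below 0 for 8 of 8 measured pup tissue genes (median of these means -1.78) and above 0 for 12 of 14 pluripotency genes (median 0.55). Of the pup genes, Krt10 lay above 0 in early Flk1+ cells, at 0.28 at 84 h. Another log base would multiply every difference by 1 factor.

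The table held 20280 probes and no missing value. Array medians ran from 0.046 to 0.197 and were set to 0. Probes of 1 gene were averaged, which gave 8973 named genes and, with unnamed probes, 17440 features. R 4.3.3 with limma 3.58.1 (lmFit, eBayes) fitted 1 mean per group, with 18 residual and 3.41 prior degrees of freedom. Features were called at a Benjamini-Hochberg adjusted p under 0.05 over all features, and the deposited values carry no p-value. Errors after a difference are standard errors (SE). The fit was also run on simulated data with known differences. Their noise was independent and normal, without arrays standing apart or paired, so that run does not cover those traits of these data. Figures used Python 3.11.15 and matplotlib 3.10.9.

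Hoxb1, the gene lists and the 3 arrays left out were chosen with earlier results of these data known. Named were all Hox genes, up to 4 called members of a list per comparison with uncalled members by their values, and the 10 genes most and 3 least like Hoxb1. The change of a sort difference between times was tested in the same fit, an addition made after the data were seen. Replicate numbers may pair the sorts: deviations from the group means of same-numbered arrays of a time correlated at 0.107 to 0.437 in all pairs of 95 h and 8 d, but at -0.127 to 0.526 at 84 h. The alternatives were the deposited scale, quantile normalization, the most variable probe per gene, only the arrays compared, array weights, a filter on features of low SD, the replicate block, and arrays left out. Arrays limit the precision by their number, 4 per group.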

Additional observations from a re-analysis of the deposited data

Results flagged for a closer look

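In groups of 4, single arrays lay far from the other 3 in 17 of 240 gene and group combinations examined, where chance gives about 1 in 20. For Hoxb1 this was array 1 of Flk1- cells at 8 d, at -0.20 against -0.07 to -0.05. Among Hox genes these were Hoxa9 on Flk1+ array 2 of 84 h (-0.96), Hoxc8 on Flk1- array 1 of 95 h (0.08) and Hoxd12 on Flk1+ array 4 of 84 h (1.25). For genes with profiles like or unlike that of Hoxb1 they were Prkd1 on Flk1+ array 2 of 95 h (1.64), Dlg5 on Flk1+ array 4 of 84 h (1.52), Cdh2 on Flk1+ array 3 of 95 h (0.51), Snai1 on Flk1- array 4 of 8 d (1.11), and Klf2 on Flk1+ array 1 of 95 h (-1.53) and Flk1- array 1 of 8 d (-0.27). For Kdr they were Flk1- array 1 of 95 h (-1.30) and Flk1+ array 4 of 8 d (1.89). In the gene lists they were Mesp1 on Flk1+ array 2 of 95 h (3.30), Cbx7 on Flk1- array 2 of 95 h (1.62), Jarid2 on Flk1+ array 1 of 95 h (0.43), and Rxra on Flk1+ array 4 of 84 h (0.11) and Flk1- array 2 of 8 d (-0.45).

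Among the other Hox genes, the 5 lists and the mesoderm markers, the sort difference of 2 genes changed between 95 h and 8 d, where 0.533% of all features were called for such a change. That of Fgf10 changed by -1.61 (SE 0.27, limma adjusted p = 0.00412) and that of Hand1, a factor of lateral mesoderm, by -1.66 (SE 0.33, adjusted p = 0.019). Hand1 ran at 2.11 ± 0.22 (Flk1+) and 0.84 ± 0.42 (Flk1-) at 95 h, and at 1.99 ± 0.38 and 2.38 ± 0.15 at 8 d.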

How the results depend on the processing

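All 7 Hoxb1 differences moved by less than 1 SD between arrays under every alternative run for them. The choice of probe could not move them, since Hoxb1 has 1 probe. Leaving out single arrays gave 1.69 to 1.96 at 84 h, 0.95 to 1.23 at 95 h and -0.19 to -0.03 at 8 d between the sorts. Within a sort it gave -0.30 to 0.01 (Flk1+) and 0.46 to 0.72 (Flk1-) from 84 h to 95 h, and -1.66 to -1.44 (Flk1+) and -0.50 to -0.24 (Flk1-) from 95 h to 8 d. Hoxb1 kept the highest sort difference of the 14 Hox genes at 84 h and 95 h on the deposited scale, after quantile normalization, with array weights and without the 3 arrays that stood apart. The number of other Hox genes called was 0 at 84 h (3 with array weights, 0 to 1 without single arrays) and 0 at 95 h (0 to 0). At 8 d it was 0, and 1 from only the arrays compared, 2 with array weights, 1 with the replicate block and 0 to 1 without single arrays. From 84 h to 95 h it was 1 in Flk1+ cells (0 from only the arrays compared, with array weights and without the 3 arrays, 1 to 3 without single arrays) and 0 in Flk1- cells (1 with array weights, 0 to 1 without single arrays). From 95 h to 8 d it was 5 in Flk1+ cells (3 after quantile normalization, 2 with the filter on SD, 3 to 6 without single arrays) and 2 in Flk1- cells (5 with array weights, 4 without the 3 arrays, 2 to 3 without single arrays). The filter on SD took the Hox genes missing from its count out of the fit, so they were not tested there. Genes called over the 5 lists were 13 at 84 h (3 from only the arrays compared, 22 with array weights, 7 to 20 without single arrays), 6 at 95 h (3 to 8) and 0 at 8 d (2 after quantile normalization, 6 from only the arrays compared, 11 with array weights, 1 with the replicate block, 1 without the 3 arrays, 0 to 1 without single arrays). The replicate block could not move a sort difference, because every replicate number is present in both sorts of a time. It kept the numbers called at 84 h and 95 h within 1.5 times, and of the called genes it ended the call of Eomes at 84 h (adjusted p = 0.0506). No called gene changed direction under the alternatives run. The causes of these changes were not tested.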
